A study of Mus musculus with 6 samples.

Results

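The genes described here carry amino acids across membranes in 3T3-L1 cells, mouse fibroblasts of embryonic origin that turn into fat-storing cells under hormonal induction. They were taken by symbol, as every row of the deposited table in the solute carrier families Slc1, Slc3, Slc6, Slc7, Slc36, Slc38 and Slc43, which gave 66 of 46095 rows. Of these, 4 rows are named as opposite-strand genes of a transporter, which leaves 62 transporter genes. The rule goes by family, so it also takes carriers of creatine, taurine, monoamines and nucleobases, and carriers that sit mainly in the lysosome. The series holds 6 samples. In 3 of them the cells received 0.125 μg/mL of flavonoids from the plant Smilax glabra, and the other 3 were left untreated, with no vehicle named in the labels. All samples belong to the same line and were collected 8 days after differentiation, and the length of the treatment is not given in the sources used here. The labels do not tell whether replicates were grown apart from each other, and the p-values then speak to the spread among these libraries alone, part or all of which may be technical.

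Amino acid carriers fall into a few mechanisms. Exchangers of the Slc7 family work as pairs, a light chain that moves the substrate and a heavy chain of the Slc3 family that brings it to the cell surface, and they trade an amino acid inside the cell for another outside. Many sodium-coupled carriers of the Slc1, Slc6 and Slc38 families load the cell against a gradient, though Slc1 also holds exchangers of neutral amino acids. Several carrier genes are induced by the transcription factor ATF4 when amino acids run short, through a composite C/EBP-ATF element, and the leucine that enters through the exchanger Slc7a5 with Slc3a2 is a signal to the growth kinase complex mTORC1.

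A core of that element, TGATGNAA, was searched on both strands of the RefSeq promoters (GRCm38.p6), each 250 bases before to 50 bases after a start. It is shown here for the tested carrier that holds it, Slc1a4, and for the cystine carrier Slc7a11, which holds it in a facing pair. The stretches run from 150 bases before the start to 20 bases after it, 5′ to 3′ on the gene's strand, and capitals mark the matches. The Slc7a11 stretch is chr3:50443594-50443763 and the Slc1a4 stretch is chr11:20332694-20332863, both on the minus strand.
Slc7a11: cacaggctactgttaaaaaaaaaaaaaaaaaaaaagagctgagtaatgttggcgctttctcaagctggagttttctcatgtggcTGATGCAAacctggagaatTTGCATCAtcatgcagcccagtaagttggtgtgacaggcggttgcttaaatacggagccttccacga
Slc1a4: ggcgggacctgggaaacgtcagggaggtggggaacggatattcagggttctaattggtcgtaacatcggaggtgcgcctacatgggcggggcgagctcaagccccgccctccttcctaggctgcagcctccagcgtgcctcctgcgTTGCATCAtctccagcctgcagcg

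In Slc7a11 the first match begins 66 bases before the start and the second, on the other strand, 47 bases before it. In Slc1a4 a single match on the other strand begins 4 bases before the start and runs across it. Of the 66 members 48 were in the promoter table, and 3 of them (6.25%) held the letters, with Slc7a7 as the third. The letters were in 1219 of 27025 genes with a promoter in the table (4.51%). Of the 6 members called higher below, 5 were in the table and 1 held the letters. Of 25 genes listed for a known amino acid response element 24 were in the table and 8 (33.3%) held them. A match is a description of the sequence, and a window without one says nothing on elements elsewhere, as in the human SNAT2 gene, whose element lies in an intron.

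The values are FPKM, which are fragments scaled to gene length and to library depth, so levels can be set side by side between genes. Whole fragments worked back from the steps of the values totalled 21952064 to 26355863 per library. The cells carried part of the programme their label names. Of 12 markers of mature adipocytes 4 had a mean of at least 1 FPKM (Fabp4, Lpl, Pparg and Cebpa), and Adipoq, Plin1, Cd36 and Slc2a4 lay under 1 FPKM in every library. The summed adipocyte markers were 345.9 to 518.5 FPKM with flavonoids and 385.6 to 415.6 FPKM in untreated cells. Most of that sum was Fabp4 and Lpl. Fabp4 ran from 149.3 to 193.9 FPKM with flavonoids and from 177.1 to 251 FPKM in untreated cells. Lpl ran from 177.9 to 306.4 FPKM and from 144.2 to 192 FPKM. All 7 preadipocyte and fibroblast markers were above 1 FPKM, with sums of 1029 to 1140 FPKM with flavonoids and 1327 to 1704 FPKM in untreated cells. Col1a1 was the largest part of these sums. Of the 7 markers 3 were called lower, where 5.13% of all tested genes were. Of 4 macrophage markers Cd68 reached a mean of 1 FPKM, with Ptprc listed at 0 throughout, and 0 of 3 endothelial markers did. In bulk RNA, fewer cells of a type and less RNA per cell cannot be told apart, and the part of these markers in the results below was not tested.

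Libraries also differed in how their values leaned with gene length. The slope of a library's log2 deviation per doubling of the implied gene length was -0.012, -0.017 and -0.030 in flavonoids replicates 1, 2 and 3, against -0.116, 0.017 and 0.159 in untreated replicates 1, 2 and 3. Untreated replicate 1 thus had relatively less of long genes and untreated replicate 3 more, while the treated libraries were alike. Among the tested members 16 of 22 (72.7%) were lowest in untreated replicate 1 and highest in untreated replicate 3 among the untreated libraries, against 34.5% of all tested genes. Calls are therefore also given with each library's smooth length trend removed.

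Of the 66 members 21 were listed at 0 in all 6 libraries, 23 were above 0 with a mean under 1 FPKM, and 22 had a mean of at least 1 FPKM and were tested. The number tested was 3 of 7 in Slc1, 1 of 2 in Slc3, 3 of 21 in Slc6, 4 of 16 in Slc7, 2 of 6 in Slc36, 6 of 11 in Slc38 and 3 of 3 in Slc43. Slc38a1 alone among them had a group mean under 1 FPKM, at 1.58 ± 0.431 FPKM with flavonoids and 0.595 ± 0.357 FPKM in untreated cells (SD, n = 3 each), so it entered through the treated group. The most abundant members by mean level were Slc3a2 (213.6 FPKM), Slc1a5 (115.4 FPKM), Slc38a2 (110.8 FPKM), Slc43a3 (101.5 FPKM) and Slc7a5 (94.5 FPKM), which together made up 70.1% of the summed transporter level.

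**Figure D1:**
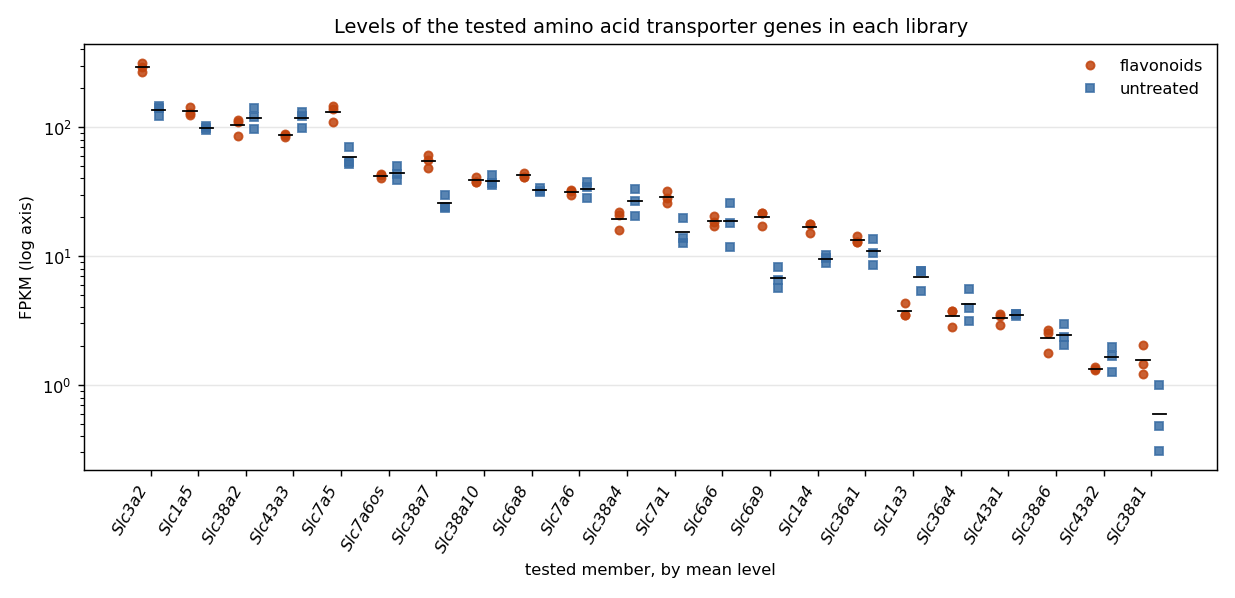
FPKM (log axis) of the 22 tested members in each library, flavonoids as circles left of untreated as squares, with black lines at the group means and genes ordered by mean level. Of the called members, Slc3a2, Slc7a5, Slc38a7, Slc6a9, Slc7a1 and Slc1a4 stand clear above their untreated values, and Slc1a3 below. Slc1a5, Slc6a8 and Slc38a1 also lie wholly above and Slc43a3 wholly below, without being called.

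Flavonoid-treated cells had higher levels of 6 tested members and a lower level of 1 (adjusted p under 0.05 by limma on the log2(FPKM + 1) scale, with Benjamini-Hochberg adjustment over 11464 genes). The 6 were the glycine carrier Slc6a9, the large neutral amino acid exchanger Slc7a5, its heavy chain Slc3a2, the lysosomal glutamine carrier Slc38a7, the cationic carrier Slc7a1 and the neutral carrier Slc1a4, and the lower one was the glutamate carrier Slc1a3. That is 27.3% of tested members called higher, where 4.86% of all tested genes were, and 4.55% called lower, where 5.13% of all were, and 9.99% of all genes were called in either direction. The median log2 change of the 22 tested members was 0.05, against -0.02 over all tested genes, with 12 positive and 10 negative. In 9 members the 3 treated values all lay above the 3 untreated values and in 2 all below, while 17% and 17.3% of all tested genes separated in those directions. With the length trend removed 10 members were called higher and 2 lower, where 12% and 9.94% of all tested genes were called. Slc38a1, which entered the test through the treated group, is among the 9 and among the 10, so these counts lean on that entry.

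**Figure D2:**
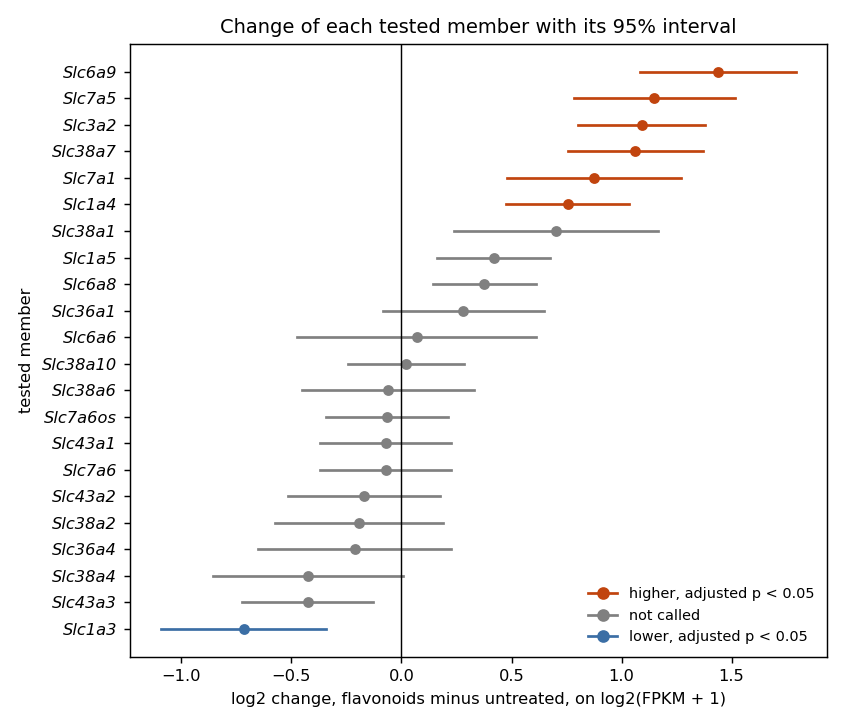
Log2 change (flavonoids minus untreated, on the log2(FPKM + 1) scale) of each tested member with its 95% limma interval, coloured by call. The 6 members called higher lie between 0.75 and 1.44, Slc1a3 at -0.72, and 15 members are grey.

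Among the chains of the surface exchangers, the heavy chain Slc3a2 and the light chain Slc7a5 were called higher and the light chain Slc7a6 was not, a contrast that was not itself tested. Slc3a2, the heavy chain also known as CD98 or 4F2hc (chromosome 19, 8706882 to 8723369, GRCm38 as all positions here), had 292, 268 and 312 FPKM in flavonoid-treated cells, against 145, 122 and 142 FPKM in untreated cells. Every treated library was above every untreated one, and the group means differed 2.13-fold (log2 change 1.09, SE 0.13, adjusted p = 0.00353). Slc7a5, the LAT1 light chain that takes up leucine and other large neutral amino acids (chromosome 8, 121881150 to 121907694), had 138, 109 and 145 FPKM with flavonoids, against 53.8, 51.4 and 70.0 FPKM in untreated cells. Its treated values also lay wholly above the untreated ones, with a 2.23-fold difference in means (log2 change 1.15, SE 0.16, adjusted p = 0.00588). Both calls held under all 18 other settings of filter, scaling, model and left-out library, with adjusted p-values up to 0.0378 for Slc3a2 and 0.0464 for Slc7a5.

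Slc7a6, the y+LAT2 light chain that exchanges cationic for neutral amino acids, shares the Slc3a2 heavy chain. It had 32.4, 30.0 and 32.0 FPKM with flavonoids, against 28.1, 34.4 and 37.5 FPKM in untreated cells, so its groups overlapped. Its log2 change of -0.07 had a 95% interval of -0.37 to 0.22 (adjusted p = 0.761). Slc7a6os, which neighbours it on the other strand and encodes no transporter, measured 42.0 ± 1.52 and 44.3 ± 5.62 FPKM (SD, n = 3 each) in treated and untreated cells (adjusted p = 0.765).

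Among the light chains that pair with Slc3a2 (Slc7a5, Slc7a6, Slc7a7, Slc7a8, Slc7a10 and Slc7a11), Slc7a5 held 80.05%, 77.4% and 81.5% of the summed FPKM in flavonoids replicates 1, 2 and 3, against 65.2%, 59.4% and 64.6% in untreated replicates 1, 2 and 3. The remainder was nearly all Slc7a6, at 18.0% to 21.4% with flavonoids and 34.0% to 39.8% in untreated cells. The ratio of Slc3a2 to the summed light chains was 1.69, 1.91 and 1.76 with flavonoids and 1.76, 1.41 and 1.31 in untreated cells, so the groups overlapped on that measure. These shares rest partly on genes chosen for their family and carry no test.

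**Figure D3:**
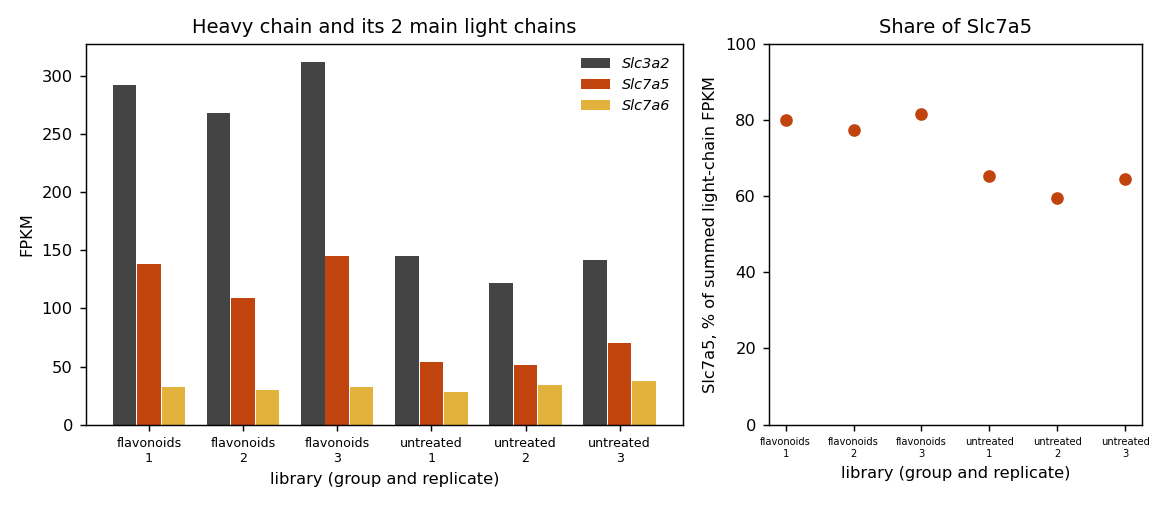
Left, FPKM of the heavy chain Slc3a2 and the light chains Slc7a5 and Slc7a6 in each library, as bars from 0. Right, Slc7a5 as a percentage of the summed FPKM of 6 light chains, between 77.4% and 81.5% with flavonoids and between 59.4% and 65.2% in untreated cells.

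The other light chains were scarce. Slc7a11, the xCT chain that imports cystine for glutathione synthesis and whose promoter is printed above, had 1.75, 1.35 and 0.700 FPKM in flavonoids replicates 1, 2 and 3 (404, 331 and 160 fragments), against 0.245, 0.385 and 0.678 FPKM in untreated replicates 1, 2 and 3 (50, 83 and 158 fragments). The groups separated by a narrow gap, between flavonoids replicate 3 and untreated replicate 3, and the means of 1.27 ± 0.530 and 0.436 ± 0.221 FPKM (SD, n = 3 each) differed 2.91-fold. That gap depends on the unequal FPKM totals of these libraries, 488458 in flavonoids replicate 3 and 424479 in untreated replicate 3. The Slc7a11 mean over the 6 libraries, 0.852 FPKM, was under the limit for testing. In the fit without that limit its log2 change of 0.64 had an adjusted p of 0.18. Slc7a7, the y+LAT1 chain, lay between 0.212 and 0.314 FPKM with flavonoids and between 0.243 and 0.377 FPKM in untreated cells. Slc7a8, the LAT2 chain, had at most 2 fragments in a library, and Slc7a10, a serine and glycine carrier used as a surface marker of white adipocytes, was listed at 0 in all. The heavy chain Slc3a1, the partner of the kidney light chain Slc7a9, had at most 2 fragments per library with flavonoids and at most 4 in untreated cells.

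Of the cationic amino acid carriers of the Slc7 family, which work without a heavy chain, Slc7a1 was the one tested. This arginine and lysine carrier, CAT1 (chromosome 5, 148327410 to 148399904), had 31.9, 25.6 and 28.2 FPKM in flavonoid-treated cells, against 12.6, 13.7 and 19.8 FPKM in untreated cells. All treated libraries were above all untreated ones, among which replicate 3 stood highest (1.86-fold in means, log2 change 0.87, SE 0.17, adjusted p = 0.0178). Its call was lost without untreated replicate 2 (adjusted p = 0.101), flavonoids replicate 1 (0.0859) or flavonoids replicate 3 (0.0682), and without the filter on low values (0.069). Slc7a2 and Slc7a3, other carriers of cationic amino acids, stayed under 0.5 FPKM in every library and overlapped between groups.

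The Slc1 family holds neutral amino acid exchangers and glutamate carriers, and its tested members went both ways. Slc1a4, the ASCT1 carrier of alanine, serine and cysteine (chromosome 11, 20302180 to 20332713), had 17.7, 15.0 and 17.7 FPKM with flavonoids, against 8.78, 9.60 and 10.2 FPKM in untreated cells. No treated value fell within the untreated range (1.76-fold in means, log2 change 0.75, SE 0.12, adjusted p = 0.00957), although the call was lost without untreated replicate 2 (adjusted p = 0.07) or flavonoids replicate 1 (0.0606). Slc1a5, the ASCT2 glutamine carrier, had 128, 125 and 144 FPKM with flavonoids, against 95.2, 98.2 and 102 FPKM in untreated cells. Its groups did not overlap either, but the log2 change of 0.42 (95% interval 0.16 to 0.67) had an adjusted p of 0.0507. It was called without untreated replicate 3 (adjusted p = 0.0287), with the length trend removed (0.0088) and on recovered fragments (0.0499).

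Slc1a3, the glutamate and aspartate carrier GLAST (chromosome 15, 8634124 to 8710764), was the tested member called lower. It had 3.49, 4.31 and 3.50 FPKM in flavonoid-treated cells, against 5.33, 7.63 and 7.71 FPKM in untreated cells. All treated values lay below the untreated ones, with means 1.83-fold lower (log2 change -0.72, SE 0.16, adjusted p = 0.0297). The call was not kept without untreated replicate 2 (adjusted p = 0.155) or without any single treated library (0.123, 0.064 and 0.094 without flavonoids replicates 1, 2 and 3), nor without the filter on low values (0.0924). The neuronal and glial glutamate carriers Slc1a1, Slc1a2, Slc1a6 and Slc1a7 were at or near 0.

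In the Slc6 family, whose members use sodium and chloride, Slc6a9 had the largest fitted change of all tested members. This GlyT1 glycine carrier (chromosome 4, 117834506 to 117875198) had 21.5, 17.2 and 21.4 FPKM in flavonoid-treated cells, against 5.70, 6.51 and 8.18 FPKM in untreated cells. The lowest treated library was above the highest untreated one by a wide margin (2.95-fold in means, log2 change 1.44, SE 0.16, adjusted p = 0.0029), and the call held under all 18 other settings. Its exons overlap B4galt2, Ccdc24 and Gm17114 on the opposite strand, and without stated strand use their reads cannot be told apart. Exons of Slc38a10, Slc43a2 and Slc6a6, which were not called, also overlap an opposite-strand gene. Levels of Gm17114 are not given here. B4galt2 had 13.2, 14 and 14.4 FPKM with flavonoids, against 13.0, 11.4 and 11.3 FPKM in untreated cells (adjusted p = 0.308), and Ccdc24 had an adjusted p of 0.899.

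The remaining tested Slc6 members carry solutes other than protein amino acids. Slc6a8, the creatine carrier on the X chromosome, had 41.3, 41.2 and 44.4 FPKM with flavonoids, against 31.8, 31.6 and 33.7 FPKM in untreated cells. The groups were apart, with a log2 change of 0.38 (95% interval 0.14 to 0.61) at an adjusted p of 0.0541, and it was called without untreated replicate 3 (0.0341), with the length trend removed (0.0104) and without the filter on low values (0.0474). Slc6a6, the taurine carrier, had 18.4, 17 and 20.5 FPKM with flavonoids, within the untreated values of 11.8, 17.9 and 25.9 FPKM, and its log2 change of 0.07 (95% interval -0.47 to 0.61) had an adjusted p of 0.884. Below the limit for testing, the noradrenaline carrier Slc6a2 had 0.402, 0.337 and 0.386 FPKM with flavonoids (63, 56 and 60 fragments), against 0.116, 0.157 and 0.139 FPKM in untreated cells (16, 23 and 22 fragments). It was the one member under 1 FPKM called in the fit without that limit (log2 change 0.27, adjusted p = 0.0237). Of the 21 Slc6 rows 10 were listed at 0 throughout, among them Slc6a5, another glycine carrier.

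The Slc38 family of sodium-coupled neutral amino acid carriers had 1 member called higher among 6 tested. Slc38a7, a carrier of glutamine out of lysosomes (chromosome 8, 95835920 to 95853539), had 55.1, 48.5 and 60.3 FPKM with flavonoids, against 23.6, 23.9 and 29.5 FPKM in untreated cells. The separation was complete and the means differed 2.13-fold (log2 change 1.06, SE 0.13, adjusted p = 0.00431), a call that held under all 18 other settings. Slc38a1, the SNAT1 glutamine carrier, had 2.06, 1.45 and 1.22 FPKM with flavonoids (399, 298 and 235 fragments), against 0.309, 0.480 and 0.996 FPKM in untreated cells (53, 87 and 195 fragments). Its groups were apart, with a log2 change of 0.70 at an adjusted p of 0.0637, and it was called without untreated replicate 3 (0.0203), with quantile normalization (0.0219), with the length trend removed (0.00201) and on recovered fragments (0.0408).

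Slc38a2, the SNAT2 carrier that is a well known ATF4 target in human and rat cells, was the most abundant of the family and was not called. It had 113, 110 and 86.0 FPKM with flavonoids, against 96.8, 119 and 140 FPKM in untreated cells, so the groups overlapped. Its log2 change was -0.19 with a 95% interval of -0.57 to 0.19 (adjusted p = 0.504). Slc38a4, a neutral carrier prominent in liver, had 20.7, 21.9 and 16.0 FPKM with flavonoids and 20.3, 26.7 and 33.3 FPKM in untreated cells, with overlap, and its log2 change was -0.42 (adjusted p = 0.192). It was called lower without untreated replicate 1 (adjusted p = 0.0421). Slc38a10 and Slc38a6 overlapped between groups, at 38.7 ± 2.34 and 2.32 ± 0.486 FPKM with flavonoids against 38.1 ± 3.63 and 2.46 ± 0.492 FPKM in untreated cells (SD, n = 3 each). Slc38a9, the lysosomal arginine sensor of mTORC1, was under the limit for testing, at 0.410 to 0.580 FPKM with flavonoids and 0.386 to 0.841 FPKM in untreated cells.

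No tested member of the Slc36 family, which holds proton-coupled carriers, or of the Slc43 family was called. Slc36a1, the PAT1 carrier of small amino acids at lysosomes and the cell surface, had 12.8, 12.8 and 14.2 FPKM with flavonoids, against 8.56, 10.6 and 13.5 FPKM in untreated cells. The groups overlapped through untreated replicate 3 (log2 change 0.28, adjusted p = 0.305), and with the length trend removed it was called higher (adjusted p = 0.0469). Slc36a4 measured 3.44 ± 0.546 and 4.21 ± 1.25 FPKM (SD, n = 3 each) in treated and untreated cells. Slc36a2, used as a surface marker of brown adipocytes, was under the limit for testing, with 0.312, 0.186 and 0.266 FPKM with flavonoids (19, 12 and 16 fragments), against 0.856, 0.528 and 0.570 FPKM in untreated cells (46, 30 and 35 fragments). Its groups did not overlap, and without the limit its adjusted p was 0.0863.

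Of the Slc43 family, Slc43a3, which carries purine nucleobases rather than amino acids, had 84.3, 86.2 and 87.9 FPKM with flavonoids, against 98.6, 121 and 131 FPKM in untreated cells. Treated values lay below untreated ones, with a log2 change of -0.43 (95% interval -0.72 to -0.13) at an adjusted p of 0.0748. It was called lower without untreated replicate 1 (adjusted p = 0.0178) and with the length trend removed (0.0312). The leucine carriers LAT3 and LAT4, encoded by Slc43a1 and Slc43a2, overlapped between groups, at 3.31 ± 0.341 and 1.34 ± 0.0426 FPKM with flavonoids, against 3.51 ± 0.0876 and 1.65 ± 0.354 FPKM in untreated cells (SD, n = 3 each).

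Summed over families, the levels of Slc1, Slc3, Slc6 and Slc7 were wholly higher in treated libraries, those of Slc43 wholly lower, and those of Slc36 and Slc38 overlapped between groups. The FPKM of all genes did not add up to the same total in each library. These totals were 488458 to 496079 with flavonoids, against 524930, 477408 and 424479 in untreated replicates 1, 2 and 3. The family sums and the sum over all transporter genes are not rescaled for this. The separations of Slc6 and of the sum over all transporter genes depend on it. The 62 transporter genes summed to 1065, 984.9 and 1087 FPKM with flavonoids and to 696.2, 743.5 and 864.7 FPKM in untreated cells. Slc7 made 205.1, 166.4 and 206.3 FPKM of the treated sums and 95.5, 100.9 and 128.9 FPKM of the untreated ones, and Slc38 made 231.5, 222.6 and 207.0 FPKM and 180.3, 208.0 and 249.7 FPKM. Slc1 sums averaged 152.8 ± 11.2 FPKM with flavonoids and 114.9 ± 5.35 FPKM in untreated cells, and Slc6 sums 81.5 ± 5.47 and 58.0 ± 9.38 FPKM (SD, n = 3 each). Slc43 sums averaged 90.8 ± 2.19 FPKM with flavonoids and 122.1 ± 17 FPKM in untreated cells (SD, n = 3 each), and most of that level was Slc43a3. Slc3a2 alone was 27.3% to 28.7% of the treated sum and 16.4% to 20.9% of the untreated sum, whereas Slc38a2 was 7.91% to 11.2% and 13.9% to 16.2%.

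The calls under all settings show which members passed the threshold throughout. A call lost without a library does not by itself show that the result rests on that library. Genes called higher over all numbered 557 as reported, 65 without untreated replicate 2, 95 without flavonoids replicate 1 and 876 without untreated replicate 1. The log2 change of Slc1a4 was 0.75 as reported and 0.76 without untreated replicate 2, where its call was lost. Slc3a2, Slc7a5, Slc6a9 and Slc38a7 were called in every setting, and Slc7a1, Slc1a4 and Slc1a3 in most. Most of the further calls came with the length trend removed or without an untreated library at an end of the length slopes, replicate 1 or 3.

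**Figure D4:**
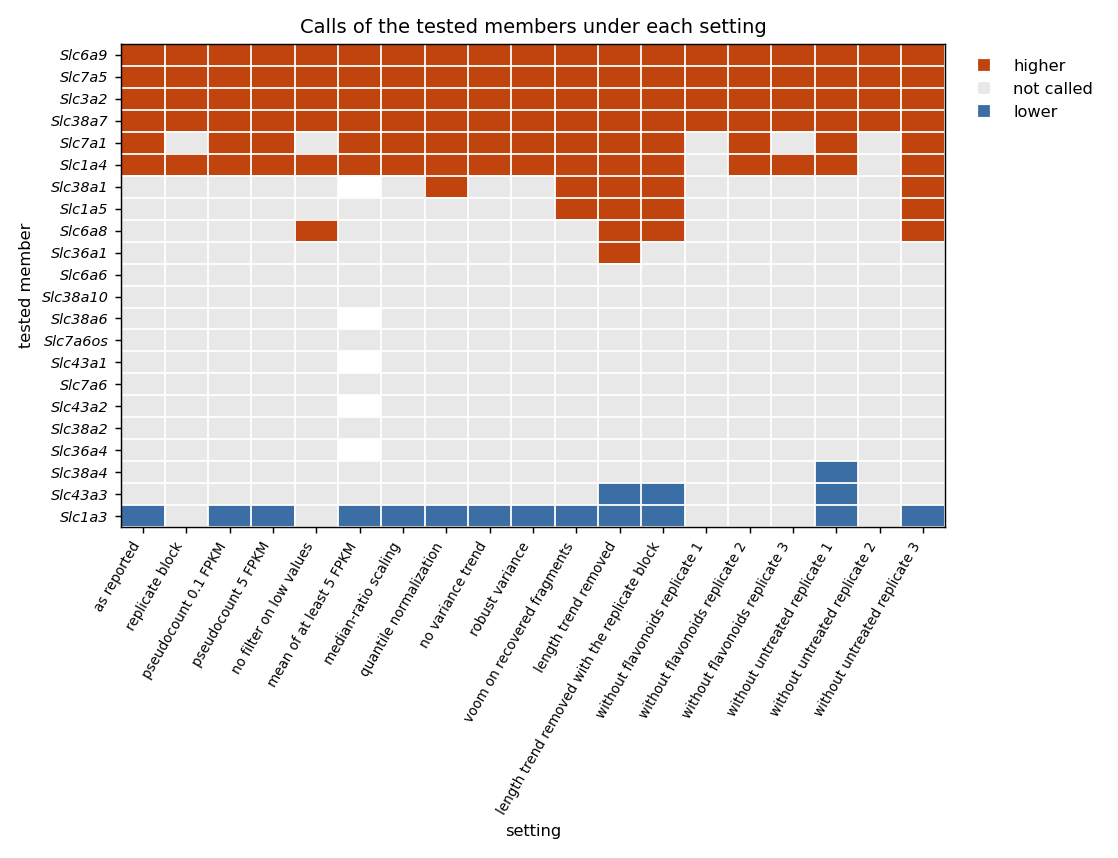
Call of each tested member (rows, by log2 change) under the reported setting and 18 others (columns), orange-red for higher, blue for lower, grey for not called and white for not tested. The 4 rows of Slc6a9, Slc7a5, Slc3a2 and Slc38a7 are orange-red throughout, and Slc1a3 in the bottom row is blue in 13 columns.

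Genes around the carriers were counted in lists drawn up from textbook knowledge, with earlier results of these data known. Over all tested genes 4.86% were called higher and 5.13% lower, and the median log2 change was -0.02. Of genes listed for an amino acid response element, 16 of 24 tested were higher and 0 lower, with a median log2 change of 0.78. Those higher were Ddit3, Trib3, Chac1, Herpud1, Shmt2, Phgdh, Mthfd2, Sesn2, Gpt2, Cth, Atf3, Asns, Psph, Cebpb, Psat1 and Atf4. The element was not checked gene by gene, and 8 of the 24 listed genes in the promoter table held its core letters. Shmt2, a mitochondrial serine-to-glycine enzyme, had 181, 174 and 212 FPKM with flavonoids, against 96.9, 92.9 and 85 FPKM in untreated cells (adjusted p = 0.00377). Herpud1, a degradation factor of the endoplasmic reticulum, had 204, 194 and 225 FPKM, against 104, 96.0 and 98.9 FPKM in untreated cells (adjusted p = 0.0029). Treated and untreated libraries were wholly apart for both. The count was 8 without untreated replicate 2 and 8 without flavonoids replicate 1.

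Of the amino acid sensing genes, which report leucine, arginine and uncharged transfer RNA to mTORC1 and to the kinase GCN2, 7 of 27 tested were higher and 1 lower (median log2 change 0.15). Flcn, which activates the Rag GTPases at the lysosome, had 33.0, 33.9 and 36.6 FPKM with flavonoids, against 16.7, 17.3 and 16.9 FPKM in untreated cells (adjusted p = 0.0029). Of the sestrins, which bind leucine or answer stress, 1 was called higher, 1 lower and 1 not. Sesn2 rose to 30.5 ± 3.41 FPKM in treated cells, against 15.4 ± 1.39 FPKM in untreated cells (SD, n = 3 each, adjusted p = 0.00515), and Sesn1 fell to 17.6 ± 1.46 FPKM, against 33.7 ± 0.956 FPKM in untreated cells (adjusted p = 0.00405). Sesn3 measured 5.76 ± 1.17 FPKM with flavonoids and 9.69 ± 2.86 FPKM in untreated cells (SD, n = 3 each, adjusted p = 0.0957). Lamtor1, an anchor of the Rag GTPases, was 1.84-fold higher and Rragc, one of those GTPases, 1.55-fold higher (adjusted p = 0.0109 and 0.0142). Lars, Nprl3 and Atf4 were the other genes of the list called higher. The list's calls numbered 3 without untreated replicate 2, flavonoids replicate 1 or flavonoids replicate 2.

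Of other amino acid and peptide carriers 5 of 17 tested were higher and 0 lower (median log2 change 0.28). These were Mfsd1, a lysosomal carrier of small peptides, Slc15a4, a lysosomal histidine and peptide carrier, Pqlc2, the lysosomal cationic amino acid carrier, and the mitochondrial carriers Slc25a38 for glycine and Slc25a44 for branched-chain amino acids. Slc15a4 had 25.2, 22.8 and 26.5 FPKM with flavonoids, against 14.9, 15.5 and 15.7 FPKM in untreated cells (adjusted p = 0.0105). Slc25a38 had 5.07, 4.86 and 4.76 FPKM, against 3.45, 2.83 and 2.17 FPKM in untreated cells (adjusted p = 0.0355). Without single libraries the 5 calls numbered 0 (untreated replicate 2), 1 (flavonoids replicate 1), 2 (flavonoids replicate 2 or 3) or 3 (untreated replicate 1).

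In a list on the supply and use of cysteine and glutathione 3 of 14 tested genes were higher and 0 lower (median log2 change 0.33). Cth, which makes cysteine from cystathionine, had 24.4, 21.4 and 20.3 FPKM with flavonoids, against 12.4, 11.2 and 7.87 FPKM in untreated cells (adjusted p = 0.0097), and the others were Chac1, which degrades glutathione, and Gsr, which recycles it. The genes that build glutathione from cysteine, Gclc, Gclm and Gss, were not called (adjusted p = 0.118, 0.0723 and 0.998). Without untreated replicate 2 or flavonoids replicate 1 the count was 1. Of 13 tested chaperones and partners of carriers Bsg, a surface glycoprotein that escorts lactate carriers and binds CD98, was called lower and 0 higher (median log2 change -0.08), a share near the 5.13% of all tested genes called lower. It had 360, 370 and 402 FPKM with flavonoids, against 678, 612 and 513 FPKM in untreated cells (adjusted p = 0.0267). That call was lost without untreated replicate 2 or any 1 treated library, and without the filter on low values. Atf4, Chac1, Cth and Sesn2 belong to more than 1 of these lists.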

How the data were processed

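Messenger RNA of 3 flavonoid-treated and 3 untreated samples was sequenced, with TruSeq libraries per the labels' protocols. The authors deposited FPKM values for 46095 symbols and 6 columns. The submitters' processing notes name FastQC, HISAT2 and mm10. Not given in the sources used here are their versions, the counting tool, the annotation and strand use, so reads of paralogs and overlapping genes cannot be assigned with certainty.

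The test was limma 3.58.1 (R 4.3.3), two-sided and with its variance trend, on log2(FPKM + 1) of the 11464 genes averaging 1 FPKM or more, Benjamini-Hochberg adjusted over them, with a threshold of 0.05 and no covariate. This scale understates changes of low genes. An exact permutation test of 3 against 3 cannot go below p = 0.1 and was not used. Whole fragments were recovered from the steps of each gene's values (all 22235 rows above 0, within 0.005 fragments), and are too small by any divisor that all of a gene's numbers share. The scripts were tested on simulated data. Tables and plots were made in Python 3.11.15 (matplotlib 3.10.9, numpy 2.4.6, pandas 2.3.3). Positions are from GENCODE M21 (GRCm38) and promoters from RefSeq (GRCm38.p6).

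The rule for named genes took members called, tested members whose groups did not overlap, the 5 most abundant, both heavy chains, tested light chains, untested members reaching 1 FPKM in a library, and called genes of the other lists. Further members were named for their roles after their values were seen. The members and lists were chosen with earlier results of these data known. Other settings were the replicate block, pseudocounts of 0.1 and 5, no filter, a mean of at least 5 FPKM, median-ratio scaling, quantile normalization, variance without trend or robust, voom on recovered fragments, removal of each library's loess trend over implied length (span 0.5), and leaving out each library. The trend removal together with the block was chosen after seeing the data.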

Additional observations from a re-analysis of the deposited data

How the results depend on the processing

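The calls of Slc3a2, Slc7a5, Slc6a9 and Slc38a7 kept direction and threshold in all 18 settings. Over the 22 tested members 348 of 391 alternative values kept direction and side, 13 lost the call, 18 gained it and 12 changed sign. With the length trend removed 10 members (Slc38a1, which entered through the treated group, among them) were higher and 2 lower, against 1375 higher and 1139 lower among all tested genes. With the length trend removed and the replicate block 2 members were lower, and 1092 genes were higher and 904 lower. Without a filter on low values 0 members were lower (Slc1a3 had adjusted p = 0.0924), and 317 genes were higher and 324 lower. Leaving out 1 library gave 4 to 9 members higher, 0 to 3 lower, 65 to 876 genes higher and 81 to 833 lower. The lowest counts came without untreated replicate 2. The causes were not tested.

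The labels do not say what a replicate number marks. Same-numbered libraries deviated from their group means with correlations of -0.143, -0.117 and -0.203. These values gave no sign of pairing, but with 3 libraries a group they cannot exclude it. With the replicate block 5 members were higher (Slc7a1 had adjusted p = 0.0508) and 0 lower (Slc1a3 had adjusted p = 0.0586), with 220 genes higher and 237 lower over all.

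The sensing list had 8 calls as reported, 5 with the replicate block, 13 with the length trend removed and 3 to 11 without a library. The other carriers had 5 calls, then 2 with the replicate block, 2 without a filter, 3 at a mean of at least 5 FPKM and 0 to 5 without a library. The partners had 1 call, then 0 with the replicate block, 0 without a filter, 2 with quantile normalization, 2 with the length trend removed, 3 with that and the replicate block, and 0 to 2 without a library. The cysteine and glutathione list had 3 calls, then 5 with quantile normalization, 7 with the length trend removed, 7 with that and the replicate block, and 1 to 4 without a library. Genes listed for response elements had 8 to 17 calls without a library.

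None of the changes of sign concerned a called member. With quantile normalization the log2 change was -0.0399 for Slc38a10, 0.0628 for Slc38a6 and 0.0397 for Slc43a1. With the length trend removed Slc38a6 was at 0.024, with and without the replicate block. Without single libraries the log2 change ran from -0.0311 to 0.0956 for Slc38a10, from -0.150 to 0.067 for Slc38a6, from -0.204 to 0.333 for Slc6a6, from -0.188 to 0.0146 for Slc7a6 and from -0.150 to 0.0267 for Slc7a6os. Depth limits members such as Slc3a1 and Slc7a8, which had at most 4 fragments in any library.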
